A study of Mus musculus with 12 samples.

Results

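How the dDAVP response of collecting duct cells differed between a control siRNA and an siRNA against TAZ was measured in 12 RNA-seq libraries, which are all 12 libraries of the series. The difference of responses is a contrast of 4 groups with 3 libraries each, namely the change from vehicle to dDAVP with TAZ siRNA minus the change from vehicle to dDAVP with control siRNA. It was fitted for 15932 genes. All groups are mpkCCDc11, a mouse line derived from kidney cortical collecting duct, so the data describe 1 cell line. Per the labels, the cells with control-siRNA are WT and those with TAZ-siRNA are TAZ knockdown. Cells of every group grew on semipermeable filters in medium with dexamethasone, triiodothyronine, epidermal growth factor, insulin and serum for 3 days and then spent 24 h in serum- and hormone-free medium. Vehicle or dDAVP (1-deamino-8-D-arginine vasopressin, 1e-09 M) was then given on the basolateral side. The labels list dDAVP exposures of 15 min, 30 min and 24 h and do not say which was used for these libraries, nor whether the 3 libraries of a group are separate cultures. The p-values therefore reflect how far libraries of a group differed, a spread that can be technical.

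Vasopressin acts on principal cells of the collecting duct through the V2 receptor, which raises cAMP and activates protein kinase A. Kinase activity moves the water channel aquaporin-2 to the apical membrane and, through CREB and other factors, raises transcription of its gene Aqp2 and of a set of rapid feedback genes. TAZ, the product of Wwtr1, and its paralogue YAP are coactivators restrained by the Hippo kinases that bind TEAD factors at genes of cell shape, matrix and growth.

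Library totals ran from 45095331 to 61725339 estimated counts, and a count of 3 in a library corresponds to 0.0486 to 0.0665 CPM (the count scaled by library size). Wwtr1 stood at 179, 186 and 177 CPM with control siRNA and vehicle and at 174, 161 and 164 CPM with control siRNA and dDAVP. With TAZ siRNA it stood at 119, 114 and 116 CPM with vehicle and at 108, 127 and 109 CPM with dDAVP, so that all 6 knockdown libraries lay below all 6 controls and much of the mRNA remained. Its own dDAVP response differed between the siRNAs by 0.09 ± 0.07 (adjusted p = 0.783). Replicates 2 and 3 with TAZ siRNA and dDAVP were at opposite ends of component 3 of a principal component analysis (-32.2 and 20.4), which held 9.67% of the variance. All 22 genes of the principal cell list had counts. Of 14 markers of fibroblasts, endothelium and immune cells 4 were at 0 in all libraries, and their summed level was 9.13 to 12.2 CPM over the 12 libraries. Of 12 intercalated cell markers 5 were at 0 throughout, and the sum of the list was 187 to 205 and 255 to 266 CPM with control siRNA (vehicle and dDAVP) and 163 to 186 and 214 to 235 CPM with TAZ siRNA. Of 12 markers of other nephron segments 5 were at 0 as well. Their sum was 181 to 190 and 153 to 170 CPM with control siRNA and 139 to 154 and 125 to 137 CPM with TAZ siRNA. The part of these markers in the results was not tested.

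Changes below are log2 fold changes ± SE, a negative difference of a raised gene means a smaller response with TAZ siRNA, and adjusted p-values are from the quasi-likelihood test of edgeR with Benjamini-Hochberg adjustment over all genes tested. The call threshold was 0.05. Of 15932 genes, 5 were called for a difference of responses (0.0314%), 3 lower (0.0188%) and 2 higher (0.0126%) with TAZ siRNA. All 5 were genes that dDAVP changed with both siRNAs, and in all 5 the response shrank. They were the transporter genes Abcc3 and Slc39a4, the chemokine gene Cxcl5, and the basement membrane collagen genes Col4a4 and Col4a1. At an unadjusted p under 0.05 there were 1295 genes (8.13%), 694 higher (4.36%) and 601 lower (3.77%). Over all genes the median difference was 0.0019, with quartiles at -0.090 and 0.087 and a median SE of 0.095.

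To ask which responses shrank, held or grew, responders were taken from the mean of the 2 dDAVP responses, a contrast that is orthogonal to their difference. This gave 4162 responders (26.1% of the genes tested), 2113 raised (13.3%) and 2049 lowered (12.9%). Of them 5 shrank and 0 grew in edgeR. DESeq2 gave 55 that shrank and 3 that grew, and edgeR without filter 10 and 0. Leaving out 1 library gave 3 to 12 that shrank and 0 to 2 that grew, with the highest of both without TAZ siRNA vehicle replicate 1. A response was said to hold where the 95% interval of the difference lay within ± 50% of the mean response, which was so for 188 genes (166 raised and 22 lowered). With a bound of 25% it was so for 15, so that holding is meant here within the wider bound. The other 3969 responders were undetermined, since their interval reached beyond that bound without the difference being called. The scatter of both responses shows these classes against the line of equal response.

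**Figure D1:**
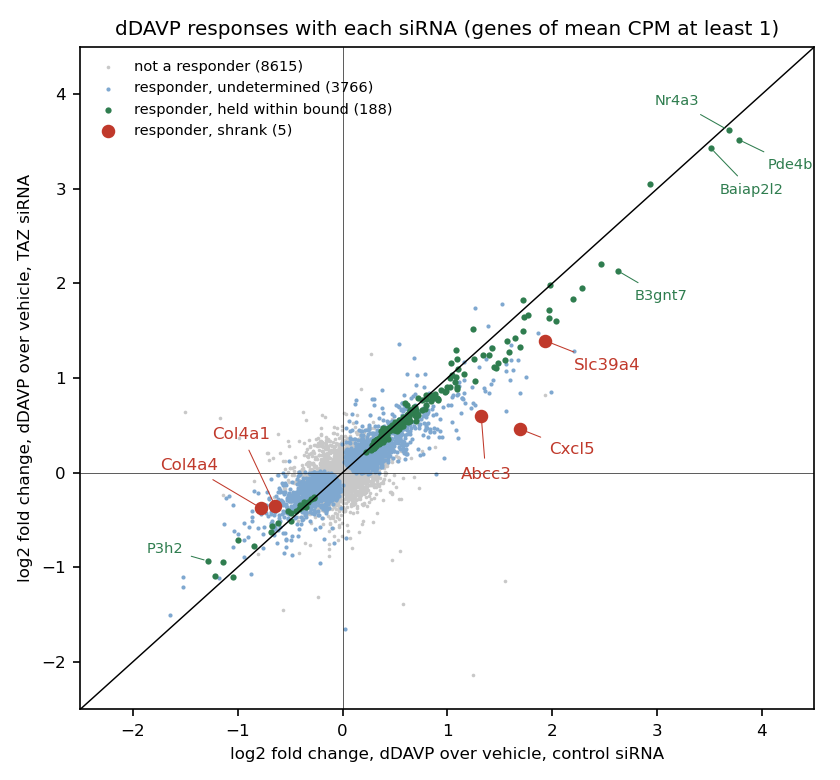
Log2 fold change of dDAVP over vehicle with control siRNA (x axis) against that with TAZ siRNA (y axis) for 12574 genes with a mean of at least 1 CPM, of which 2 lie outside the axes. Points on the diagonal have equal responses. The 5 responses that shrank (red) lie between the diagonal and the horizontal line. Of the large raised responses (green), Pde4b and Nr4a3 lie near the diagonal and B3gnt7 (2.63 and 2.13) lies below it. Aqp2 (6.66 and 7.76) lies outside the axes.

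Abcc3 (gene 76408, chromosome 11 from 94343295 to 94392990 in mm10, the span of its 3 main transcript models) encodes an efflux pump of the basolateral membrane for organic anions. Its levels were 7.90, 8.13 and 8.29 CPM with control siRNA and vehicle and 19.7, 21.6 and 19.6 CPM with control siRNA and dDAVP. With TAZ siRNA they were 9.12, 10.1 and 9.58 CPM with vehicle and 14.1, 15.1 and 14.4 CPM with dDAVP. The groups did not overlap, and the knockdown libraries were above the controls with vehicle and below them with dDAVP. The response shrank from 1.32 ± 0.07 to 0.60 ± 0.07, a difference of -0.72 ± 0.09 (adjusted p = 0.00374), or from 2.50-fold to 1.51-fold.

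Slc39a4 (gene 72027, chromosome 15 from 76612383 to 76616870), which encodes the zinc importer ZIP4, had the largest response among the genes that shrank. It stood at 26.3, 28 and 28.1 CPM with control siRNA and vehicle and rose to 106, 105 and 102 CPM with dDAVP. With TAZ siRNA it stood at 29.0, 31.6 and 29.8 CPM and rose to 78.7, 84.9 and 74.5 CPM. The vehicle groups differed by less than could be called (0.13 ± 0.05, adjusted p = 0.141), while every dDAVP library of the knockdown lay below every dDAVP control. The response fell from 1.93 ± 0.05 to 1.40 ± 0.05 (difference -0.53 ± 0.07, adjusted p = 0.00374), so 72.4% of it was kept on the log2 scale.

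Cxcl5 (gene 20311, chromosome 5 from 90759298 to 90761625), a chemokine that attracts neutrophils, had the largest difference of the 5. It rose from 11.5, 13.7 and 11.4 CPM to 39.8, 39.0 and 38.8 CPM with control siRNA. With TAZ siRNA the vehicle libraries already stood at 17.2, 27.1 and 20.6 CPM, and those with dDAVP at 29.5, 31.6 and 28.3 CPM. Replicate 2 of the knockdown with vehicle was close to the lowest dDAVP library of the knockdown. The response was 1.69 ± 0.13 with control siRNA and 0.46 ± 0.12 with TAZ siRNA (difference -1.23 ± 0.17, adjusted p = 0.032). The siRNA itself changed Cxcl5 upward with vehicle (0.83 ± 0.13, adjusted p = 0.00202) and downward with dDAVP (-0.40 ± 0.12, adjusted p = 0.0489). Over all genes the siRNA changed 6.30% with vehicle (3.19% higher and 3.11% lower) and 10.7% with dDAVP (5.77% higher and 4.97% lower). Of the 12 fits that left out a single library the call remained in 5, with adjusted p-values from 0.00010 (without TAZ siRNA vehicle replicate 1) to 0.150 (without TAZ siRNA dDAVP replicate 1). The difference was -1.03 (adjusted p = 0.00207) without TAZ siRNA vehicle replicate 2.

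Type IV collagen forms the network of basement membranes from heterotrimers of its alpha chains. The chain pairs are encoded head to head, with Col4a1 and Col4a2 on 1 chromosome and Col4a3 and Col4a4 on another. In mm10, Col4a1 (gene 12826, chromosome 8 from 11198423 to 11312826) and Col4a2 (gene 12827, chromosome 8 from 11312805 to 11449287) share 22 bases of their first exons. Col4a4 (gene 12829, model NM_007735, chromosome 1 from 82450723 to 82586849) and Col4a3 (gene 12828, chromosome 1 from 82586921 to 82722059) start 71 bases apart. Only 20.4% of the Col4a4 counts were assigned to that model, and other models of the gene extend to 82587034, past the start of Col4a3, so counts in the shared stretch are uncertain for both genes. The 71 bases between the starts are shown because genes on both sides of them had smaller estimated responses with TAZ siRNA. The sequence is that of chr1:82586850-82586920 on the minus strand, the strand of Col4a4, in RefSeq's GRCm38.p6.
Col4a4 to Col4a3: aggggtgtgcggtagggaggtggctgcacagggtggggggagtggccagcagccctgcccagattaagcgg
It is 69.0% G or C, and none of the motifs searched for (listed under Aqp2) occurs in the promoter window of Col4a4.

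Col4a4 stood at 284, 288 and 271 CPM with control siRNA and vehicle and at 170, 159 and 161 CPM with dDAVP. With TAZ siRNA it stood at 306, 294 and 279 CPM with vehicle and at 229, 222 and 228 CPM with dDAVP. The vehicle groups overlapped and every dDAVP library of the knockdown lay above every dDAVP control. The fall shrank from -0.78 ± 0.04 to -0.37 ± 0.04 (difference 0.41 ± 0.05, adjusted p = 0.00374).

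Col4a1 followed the same course, from 291, 322 and 302 CPM to 200, 194 and 192 CPM with control siRNA and from 314, 315 and 313 CPM to 249, 245 and 244 CPM with TAZ siRNA. Its fall shrank from -0.64 ± 0.03 to -0.35 ± 0.03 (difference 0.29 ± 0.05, adjusted p = 0.044). That call is the least firm of the 5. It remained in 3 of the 12 fits without 1 library, with adjusted p-values from 0.0196 to 0.165, and was lost with RLE size factors (adjusted p = 0.0558) and with a replicate block (adjusted p = 0.0631).

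The partner chains did not pass the threshold in edgeR and are given as values. DESeq2 called Col4a2 (adjusted p = 0.000323) and Col4a3, edgeR with no filter called Col4a2 (adjusted p = 0.04999), and edgeR with a replicate block called Col4a3. Col4a2 was at 258, 297 and 271 CPM and at 175, 169 and 167 CPM with control siRNA, and at 292, 305 and 288 CPM and at 242, 225 and 231 CPM with TAZ siRNA, for vehicle and dDAVP in turn. Its difference was 0.35 ± 0.06 (adjusted p = 0.0594). Col4a3, named after its values were seen, had a difference of 0.39 ± 0.07 (adjusted p = 0.0594), from 106, 105 and 104 to 63.1, 54.2 and 55.3 CPM with control siRNA and from 126, 119 and 113 to 85.1, 87.8 and 85.1 CPM with TAZ siRNA. In both genes the dDAVP libraries of the 2 siRNAs did not overlap. Col4a5, also named after its values were seen, held within the bound (-0.52 ± 0.04 and -0.40 ± 0.04).

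Of 21 tested genes of the basement membrane and matrix list, 17 were lowered responders and 0 raised. The median difference of the 21 was 0.09, against 0.0019 over all genes. At an unadjusted p under 0.05, 7 members were higher and 1 lower (38.1% against 8.13% of all genes). Among all 4162 responders, 592 reached that p. The 4 collagen genes above were among the 7, with P3h2, Col4a5 and the perlecan gene Hspg2. P3h2, which encodes a prolyl hydroxylase that modifies collagen IV, was nonetheless held, at -1.28 ± 0.06 and -0.93 ± 0.06, with an interval of the difference from 0.16 to 0.53, although DESeq2 called that difference (adjusted p = 0.0496). The exception in direction was Plod2, a lysyl hydroxylase gene (-0.22 ± 0.08, adjusted p = 0.453).

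**Figure D2:**
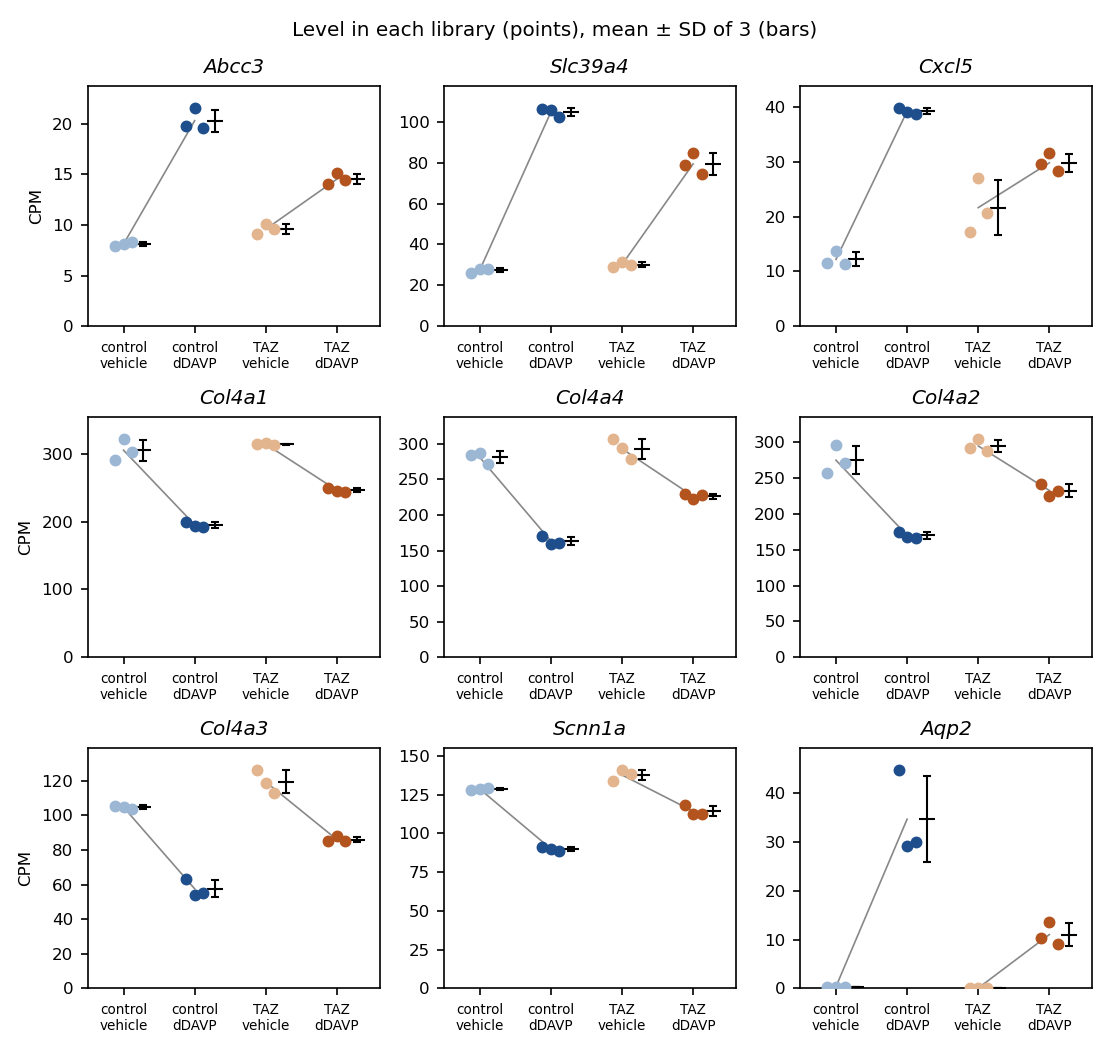
CPM of 9 genes in each of the 12 libraries (points, 3 per group) with the mean ± SD beside them and lines joining the vehicle and dDAVP means of each siRNA. For Abcc3, Slc39a4 and Cxcl5 the line rises less steeply with TAZ siRNA, and for the collagen genes and Scnn1a it falls less steeply. Aqp2 starts near 0 with both siRNAs and reaches 10.3, 13.7 and 9.11 CPM with TAZ siRNA against 44.8, 29.3 and 30.0 CPM with control siRNA.

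Just outside the threshold stood Bmp3, a member of the bone morphogenetic protein family named after its values were seen, with the smallest adjusted p after the 5 called genes (0.0568). It went from 5.78, 4.54 and 4.69 to 15.4, 13.6 and 15.4 CPM with control siRNA and from 4.79, 4.13 and 3.94 to 6.75, 7.50 and 5.89 CPM with TAZ siRNA. The difference was -0.91 ± 0.16, with the dDAVP groups far apart and the vehicle groups overlapping. DESeq2, edgeR with no filter, and edgeR with a replicate block called it. At an adjusted p under 0.1 there were 39 genes, of which 30 were responders with a difference opposite in sign to the response and 6 were not responders.

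Scnn1a codes for alpha-ENaC, a subunit of the apical sodium channel of principal cells. It stood at 128, 128 and 129 CPM with control siRNA and vehicle and at 91.2, 90.2 and 88.9 CPM with control siRNA and dDAVP. With TAZ siRNA it stood at 134, 141 and 138 CPM with vehicle and at 118, 113 and 112 CPM with dDAVP. No groups overlapped. The difference of 0.25 ± 0.04 (adjusted p = 0.0594) was not called, and it was called in 0 of the 12 fits without 1 library (0.0598 to 0.165) but in DESeq2 (adjusted p = 0.000399).

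Other named genes with a difference opposite to the response and an adjusted p under 0.1 were keratin 18 (Krt18, -0.31 ± 0.06), the prostaglandin synthase gene Ptgs2 (-0.50 ± 0.10), the exchange factor gene Dock5 (-0.33 ± 0.06), the podocalyxin gene Podxl (0.26 ± 0.05) and Amotl2, which encodes an angiomotin (0.23 ± 0.05). Their adjusted p-values were 0.0655, 0.0787, 0.0594, 0.0645 and 0.0934. DESeq2 called all 5, edgeR with the filter none of them, and edgeR with no filter Krt18 and Dock5.

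Of the 10 raised genes with a mean response of 2 or more and at least 1 CPM, 9 held. The bound grows with the mean response, so large responses meet it more easily than small ones. At a mean response of 0 to 0.25, 1 of 1275 raised genes held. Aqp2 was among the 9, although the direction of its change could not be determined as a ratio. Pde4b, a cAMP phosphodiesterase that limits the signal it responds to, went from 3.83, 2.89 and 3.40 to 49.1, 47.6 and 43.1 CPM with control siRNA. With TAZ siRNA it went from 3.21, 3.71 and 3.55 to 39.7, 42.7 and 37.7 CPM, so the dDAVP groups did not quite overlap. The responses were 3.78 ± 0.09 and 3.52 ± 0.09, with an interval of the difference from -0.53 to 0.0056. Its relative Pde4d held too, at 2.47 ± 0.09 and 2.21 ± 0.09.

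Baiap2l2, which encodes a membrane-bending protein of microvilli, stood at 3.44, 4.12 and 4.17 CPM and rose to 45.1, 43.4 and 45.5 CPM with control siRNA. With TAZ siRNA it stood at 4.97, 3.27 and 4.60 CPM and rose to 44.7, 48.8 and 45 CPM. Both treatments overlapped between the siRNAs, and the difference was -0.08 ± 0.15 (interval -0.39 to 0.22). The orphan nuclear receptor gene Nr4a3 gave 3.68 ± 0.29 and 3.62 ± 0.29 from low levels, with a wide interval of -1.03 to 0.91. Its relatives Nr4a1 (1.97 ± 0.07 and 1.64 ± 0.07) and Nr4a2 (1.55 ± 0.07 and 1.19 ± 0.07) also met the bound, although their intervals, -0.54 to -0.13 and -0.57 to -0.16, lay below 0. Their responses were thus within the bound and still estimated as smaller.

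Of 25 tested cAMP feedback and CREB target genes 16 were raised responders and 4 lowered, and 8 held. Over all 4162 responders 4.52% held, and large responses meet the bound more easily than small ones. The median difference of the 25 was -0.11, with 5 lower and 0 higher at an unadjusted p under 0.05 (20% against 8.13% of all genes). Among all 4162 responders, 592 reached that p. The 5 were Nr4a2, Nr4a1, the kinase gene Sik1 (-0.20 ± 0.06), Pde4a (-0.29 ± 0.12) and the G-protein regulator gene Rgs2 (-0.45 ± 0.19). The repressor gene Crem (0.80 ± 0.12 and 0.78 ± 0.12) and Fos (0.53 ± 0.08 and 0.52 ± 0.08), named after their values were seen, had nearly equal responses. edgeR and DESeq2 called none of the 25.

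Other held genes of the rule were B3gnt7, a glycosyltransferase gene (2.63 ± 0.10 and 2.13 ± 0.11), and Mt2, a metallothionein gene (1.46 ± 0.07 and 1.1 ± 0.07). Both were within the bound and still estimated as smaller with TAZ siRNA. The difference was -0.49 for B3gnt7 (interval -0.81 to -0.17) and -0.36 for Mt2 (unadjusted p = 0.0027 in edgeR), and neither was called. The Ets-family factor gene Elf3 had nearly equal responses, at 0.35 ± 0.04 and 0.37 ± 0.04, with an interval of the difference from -0.10 to 0.13. Ugt1a6a (2.94 ± 0.22 and 3.05 ± 0.23) is uncertain, because genes of the Ugt1a cluster share exons. Among lowered genes the small GTPase gene Rasl11a (-1.22 ± 0.12 and -1.1 ± 0.12), Trabd2b (-1.05 ± 0.16 and -1.11 ± 0.16), Fgf18, a fibroblast growth factor gene (-1.14 ± 0.10 and -0.95 ± 0.10), and the sialyltransferase gene St6gal1 (-0.99 ± 0.05 and -0.72 ± 0.05) held. DESeq2 called the difference of St6gal1 (adjusted p = 0.0326), a smaller fall with TAZ siRNA.

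**Figure D3:**
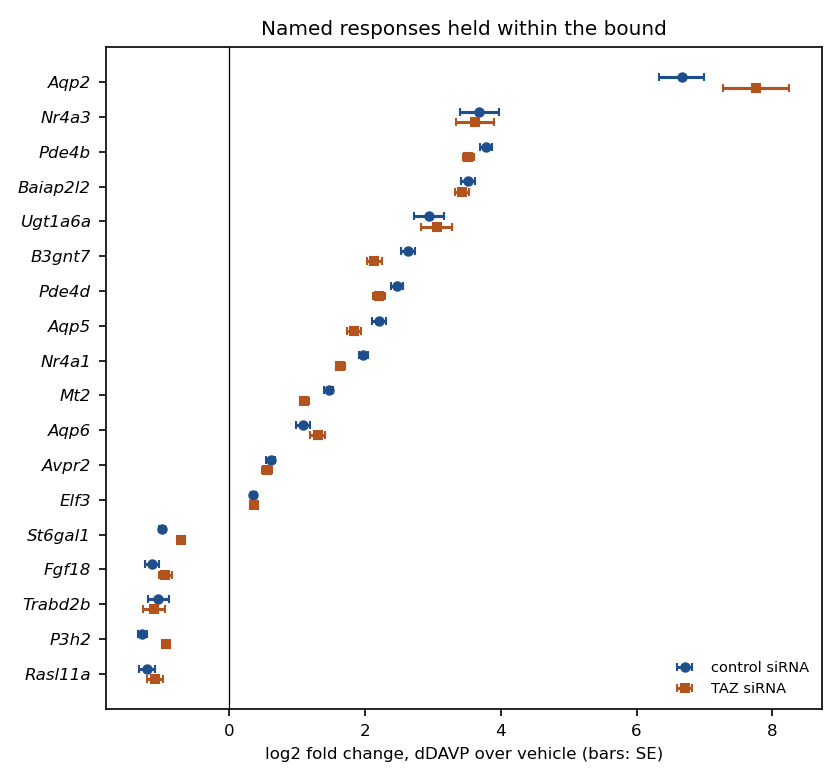
Log2 fold change of dDAVP over vehicle with control siRNA (circles) and TAZ siRNA (squares) for 18 of the 23 genes of the naming rule whose difference lay within ± 50% of the mean response, namely those always named or named for the size of a held response, with bars for the SE. Some pairs lie close together, such as those of Nr4a3 (3.68 and 3.62) and Rasl11a (-1.22 and -1.1). Others lie apart with the TAZ siRNA value nearer to no change, among them B3gnt7 (2.63 and 2.13), Nr4a1, P3h2 and St6gal1. Aqp2 has the widest gap and the widest bars.

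Aqp2 (gene 11827, chromosome 15, 99579056 to 99584545, all counts on model NM_009699) is the gene in the study's title, and how its responses compare depends on the scale. With control siRNA it stood at 0.337, 0.340 and 0.343 CPM with vehicle and at 44.8, 29.3 and 30.0 CPM with dDAVP. With TAZ siRNA only vehicle replicate 1 had counts (0.145 CPM, 9 counts), replicates 2 and 3 had 0, and the dDAVP libraries stood at 10.3, 13.7 and 9.11 CPM. The dDAVP groups did not overlap, and the knockdown was lower (log2 difference -1.66 ± 0.21, adjusted p = 0.000555). In CPM, dDAVP added 34.3 with control siRNA and 11.0 with TAZ siRNA, a difference of -23.4 ± 5.2 CPM (SE).

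As a ratio to vehicle, whether the response of Aqp2 was smaller or larger could not be determined. Summed counts went from 55 to 6036 with control siRNA, a ratio of 101 (95% counting interval 77.6 to 134), and from 9 to 1669 with TAZ siRNA, a ratio of 224 (118 to 491). These intervals cover counting error only. The difference of log2 responses was 1.1 ± 1.11 (interval -1.35 to 3.55, adjusted p = 0.843), which met the bound only because the mean response was 7.21. Without TAZ siRNA vehicle replicate 1 the fitted value was 5.59 (adjusted p = 0.574), against 0.53 to 1.33 in the other 11 fits. Such a value rests on a group at 0 and is no estimate of size. In these bulk libraries, fewer cells with Aqp2 mRNA and less of it per cell cannot be told apart.

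The 250 bases upstream of Aqp2 are shown because Aqp2 is the known target of this signal in principal cells. They are chr15:99578806-99579055 on the plus strand, from RefSeq's GRCm38.p6, and the capitals mark the match to TGACG, the core of the cAMP response element, which lies on the minus strand at 211 to 207 bases before the start.
Aqp2 upstream: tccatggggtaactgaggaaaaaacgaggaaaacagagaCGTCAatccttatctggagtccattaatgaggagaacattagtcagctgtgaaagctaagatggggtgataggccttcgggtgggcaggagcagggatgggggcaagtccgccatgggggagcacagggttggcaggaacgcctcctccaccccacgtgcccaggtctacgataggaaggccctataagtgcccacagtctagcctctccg
Windows of 300 bases (250 before to 50 after the start) matched 11562 of the 15932 genes tested, including 2 of the 5 called. Both strands were searched for TGACGTCA (the full element), TGACG (contained in it), GGAATG (TEAD), TGANTCA (AP-1) and TGACNNNGC (the antioxidant element), which can overlap. TGACG occurred in 30.8% of 52 raised responders with a mean response of at least 1, against 33.7% of all 11562 genes and 20.8% of all 32851 windows. For TGACGTCA the shares were 1.92%, 3.38% and 1.79%. Among 54 lowered responders with a mean response of at most -0.5, TGACG was in 27.8%, TGACGTCA in 3.70%, GGAATG in 16.7%, TGANTCA in 14.8% and TGACNNNGC in 22.2%. In the genes tested the last 3 were in 15.0%, 6.61% and 16.6%, and in the raised responders in 19.2%, 9.62% and 19.2%. The 14.8% for TGANTCA is 8 of 54 genes, a gene counting where any of its windows held the motif. Shares of genes and shares of windows are thus unlike measures, and no test was made of these shares.

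Of 19 tested principal cell transport genes, Aqp2 included, 10 were raised and 2 lowered responders. Of these 12, 9 had a smaller estimated response with TAZ siRNA and 3 a larger one, against 68.7% smaller among all 4162 responders. By the bound 7 held, against 4.52% of all responders, and large responses meet that bound more easily. The median difference of the 19 was -0.02. At an unadjusted p under 0.05, 3 were higher and 1 lower (21.1% against 8.13% of all genes). The 3 higher genes were Scnn1a, St6gal1 and Hsd11b2. Hsd11b2 was not a responder and encodes the enzyme that shields the mineralocorticoid receptor from glucocorticoids (0.29 ± 0.09, adjusted p = 0.373). Aqp5, another aquaporin, was lower (-0.37 ± 0.15, adjusted p = 0.516), from 4.91, 4.33 and 5.22 to 22, 21.3 and 23.6 CPM with control siRNA and from 5.68, 3.99 and 4.65 to 16.4, 18.7 and 15.9 CPM with TAZ siRNA. The V2 receptor gene Avpr2 held at 0.61 ± 0.07 and 0.56 ± 0.07, although its level was lower in the knockdown at both treatments (-0.31, adjusted p = 0.0183, and -0.36, adjusted p = 0.00356). Aqp6 held as well, at 1.08 ± 0.11 and 1.30 ± 0.11. Aqp3, at a mean of 0.633 CPM, had a difference of -0.72 ± 0.41 (adjusted p = 0.675).

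Across all responders the estimated response was smaller with TAZ siRNA in 2860 of 4162 genes (68.7%), in 65.7% of the raised and 71.8% of the lowered. At an unadjusted p under 0.05, 523 were smaller (3.28% of the genes tested) and 69 larger (0.433%). Among raised responders these counts were 221 and 44, and among lowered ones 302 and 25. The median change was small, -0.047 on the log2 scale, and the median share of the log2 response that was kept was 85.1% for raised and 72.6% for lowered genes. Genes are not independent, so no p is given for these shares.

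Medians per dDAVP library were taken against the mean of the 3 vehicle libraries of the same siRNA, which they share, so they restate the median change and are no separate support for it. The median raised gene stood 0.217, 0.238 and 0.221 above its vehicle mean in the dDAVP libraries with control siRNA and 0.197, 0.199 and 0.170 above it in those with TAZ siRNA. The median lowered gene stood at -0.185, -0.193 and -0.180 with control siRNA and at -0.143, -0.131 and -0.137 with TAZ siRNA. The share of smaller responses depended on how responders were chosen. It was 86.8% among 3058 responders called with control siRNA (19.2% of genes, 9.72% higher and 9.48% lower) and 53.2% among 1719 called with TAZ siRNA (10.8%, 6.38% higher and 4.41% lower), choices that favour a large response in the arm used.

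Loss in log2 units and share kept both varied with the size of the response. For raised genes of mean response 0 to 0.25, 0.25 to 0.5, 0.5 to 1 and 1 to 2 the median difference was -0.026, -0.046, -0.084 and -0.24, and the share kept was 82.8%, 87.3%, 88.3% and 83.5%. In the last of these bins 54 of 64 genes (84.4%) were smaller. The 10 raised genes of 2 and over had a median difference of -0.17 and kept 95.4%, and 9 of them held under a bound that grows with the response. For lowered genes the shares kept were 70.7%, 76.3% and 77.8% in the first 3 bins and 86.7% over 8 genes at 1 to 2.

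**Figure D4:**
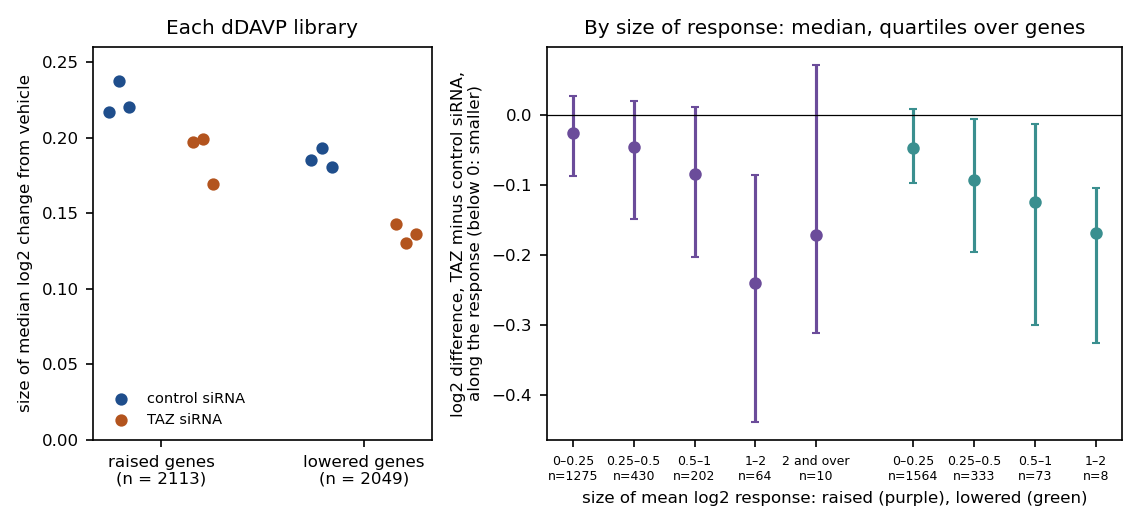
Left, size of the median log2 change from vehicle in each dDAVP library with control siRNA (blue) and TAZ siRNA (orange), for 2113 raised and 2049 lowered responders. Right, median and quartiles over genes of the log2 difference taken along the direction of the response, by size of the mean response for genes of at least 1 CPM, where values below 0 are smaller responses with TAZ siRNA. The medians run from -0.026 to -0.24 for raised genes and from -0.047 to -0.17 for lowered genes.

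No response was called as larger with TAZ siRNA in edgeR, where 69 responders were larger at an unadjusted p under 0.05. DESeq2 called 3 (Gm34865, Gm6787 and Trmt61b) and limma-voom 1 (Gm6787). Gm6787 and Gm34865 were at 0 in all 3 knockdown libraries with vehicle and at most 0.510 CPM elsewhere. Trmt61b, a tRNA methyltransferase gene, was at 1.17, 1.13 and 1.1 CPM and 1.05, 0.987 and 1.42 CPM with control siRNA and at 1.52, 1.5 and 1.32 CPM and 0.336, 0.403 and 0.661 CPM with TAZ siRNA, a difference of -1.67 ± 0.32 (adjusted p = 0.0645). Its estimated responses were 0.02 ± 0.22 and -1.65 ± 0.24. These 3 genes were named after their values were seen.

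By list, members with an unadjusted p under 0.05 were set against the background of 8.13%, and no list was tested as a whole. Of 4162 responders 592 reached that p, and of the 11770 other genes 703. The 8.13% is therefore a low reference for lists made mostly of responders. In the NRF2 and glutathione list, 20 of 21 tested genes were raised responders and all 21 differences were below 0, with a median of -0.12 and 7 lower (33.3%). Gclc, the rate-limiting enzyme gene of glutathione synthesis, stood at 47.3, 47.0 and 46.3 CPM and 71.2, 67.0 and 72.4 CPM with control siRNA and at 54.0, 48.1 and 50.8 CPM and 62.1, 66.8 and 64.0 CPM with TAZ siRNA (-0.25 ± 0.07, adjusted p = 0.247). The dDAVP groups of Gclc lay close together without overlapping. The glutathione transferase gene Gsta4 (-0.43 ± 0.15) and Mt2 (-0.36 ± 0.10) followed, at adjusted p-values of 0.436 and 0.292. edgeR called none of the 21.

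Glycolysis and hypoxia genes numbered 28 tested, with 14 raised responders and 1 lowered, a median difference of -0.16, and 8 lower and 0 higher (28.6%). The median response of the list was 0.21 with control siRNA and 0.057 with TAZ siRNA. Ldha, lactate dehydrogenase A, went from 295, 306 and 346 to 437, 504 and 482 CPM with control siRNA and from 208, 215 and 212 to 259, 276 and 260 CPM with TAZ siRNA (-0.26 ± 0.08, adjusted p = 0.32). Knockdown libraries were lower at both treatments. Vegfa (-0.27 ± 0.10, adjusted p = 0.458) and the glycolytic enzyme gene Pgam1 (-0.16 ± 0.06, adjusted p = 0.516) had the next smallest p-values.

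Keratins form the intermediate filaments of epithelia. Of 7 tested, 4 were raised responders, and the median difference of the 7 was -0.20. At an unadjusted p under 0.05, 3 were lower (42.9% against 8.13% of all genes), namely Krt8, Krt18 and Krt19. Among all 4162 responders, 592 reached that p. Krt18 went from 659, 647 and 683 to 1050, 1082 and 1028 CPM with control siRNA and from 676, 692 and 776 to 943, 903 and 898 CPM with TAZ siRNA. Krt19 had a difference of -0.32 ± 0.07 (adjusted p = 0.104) and Krt8 of -0.26 ± 0.07 (adjusted p = 0.247). DESeq2 called all 3. Krt7 and Krt80 were not responders, with differences of 0.0033 and 0.026.

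In the NF-kappaB, chemokine and complement list, 20 were tested, 9 raised and 2 lowered, with a median difference of -0.08, 7 lower and 1 higher (40.0%), and 1 called, Cxcl5. The chemokine genes Cxcl2 (-0.84 ± 0.23, adjusted p = 0.269), Ccl20 (-1.39 ± 0.39, adjusted p = 0.292) and Cxcl1 (-0.68 ± 0.24, adjusted p = 0.453) were not responders. For Ccl20 the highest library was TAZ siRNA vehicle replicate 2, at 4.54 CPM against 1.13 to 2.08 CPM in the other 11, and that library was also the highest of its group for Cxcl5, Cxcl2 and Cxcl1. Complement C3 (1.26 ± 0.06 and 0.96 ± 0.06) and the receptor gene Nod2 (2.03 ± 0.08 and 1.6 ± 0.09) were raised and held. Both were among the 7 lower members, with differences of -0.29 and -0.43 (unadjusted p = 0.0040 and 0.0021 in edgeR).

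Lists of the knocked-down pathway follow. Of 18 tested YAP and TAZ targets 4 were raised and 10 lowered responders, the median difference was 0.05, and 4 were higher and 1 lower (27.8%). Amotl2 went from 158, 162 and 159 to 110, 117 and 116 CPM with control siRNA and from 144, 148 and 155 to 126, 123 and 126 CPM with TAZ siRNA. Ccn2, the connective tissue growth factor gene (0.19 ± 0.07, adjusted p = 0.504), and the kinase gene Nuak2 (0.18 ± 0.05, adjusted p = 0.32) were higher as well. Neither Ccn2 nor Nuak2 was a responder. Dock5, a raised gene, was the one that was lower. Of 25 Hippo components 13 were lowered and 1 raised, with a median difference of 0.04, and Wwc2, Amot and Wwc1 were higher (12%). Yap1 had a difference of -0.0051 ± 0.044 (interval -0.097 to 0.087).

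Factors linked to Aqp2 transcription had 30 tested, 12 raised and 6 lowered, a median difference of 0.03, and 4 higher and 0 lower (13.3%). Among these were Pax2 (0.16 ± 0.05, adjusted p = 0.297), Jun (0.19 ± 0.06, adjusted p = 0.372) and Nfatc2 (0.15 ± 0.05, adjusted p = 0.378). Creb1, the cAMP response factor gene itself, had a difference of 0.026 (adjusted p = 0.954). Of 27 genes of cAMP signalling and AQP2 trafficking 8 were raised and 7 lowered, 0 reached an unadjusted p under 0.05, and the median difference was -0.0061. Among them Prkar2b, a regulatory subunit of protein kinase A, held at 0.71 ± 0.05 and 0.60 ± 0.05. Of 23 epithelial junction genes 14 were responders and 0 reached that p, with a median of 0.0046. edgeR called 0 genes of the lists of this paragraph.

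Cholesterol synthesis genes had 14 lowered responders of 23 tested, of which 9 had a larger estimated fall with TAZ siRNA and 5 a smaller one. Among all 2049 lowered responders the estimated fall was smaller in 71.8%. The median difference of the 23 was -0.05, and Cyp51, Idi1 and Hsd17b7 were lower (13.0%). Idi1, an isoprenoid isomerase gene, had -0.19 ± 0.05 and -0.39 ± 0.05 (difference -0.20 ± 0.08, adjusted p = 0.503). Cell cycle genes divided evenly, with 9 of 18 responders smaller and 9 larger, where 68.7% of all responders were smaller. Over the 28 tested the median difference was 0.03, and 5 were higher (17.9%). Among the 5 was the mitotic factor gene Foxm1 (0.17 ± 0.06, adjusted p = 0.436).

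The remaining lists are given by their counts. Fatty acid synthesis had 3 lower and 1 higher of 15 (26.7% against 8.13%), and p53 targets had 3 lower and 1 higher of 17 (23.5%). The elongase gene Elovl6 had a difference of -0.29 ± 0.07 (adjusted p = 0.183 in edgeR, called by DESeq2). Unfolded protein and integrated stress genes had 3 lower of 22, led by Trib3 (-0.49 ± 0.13, adjusted p = 0.247), and interferon-stimulated genes 3 higher of 29, led by Cxcl10 (0.37 ± 0.11, adjusted p = 0.351). Circadian clock genes had 2 lower of 13 (Ciart and Per2), oxidative phosphorylation 2 lower of 25, and stress fibre and focal adhesion genes 1 higher and 1 lower of 25. Apical microvillus, Notch, WNT and TGF-beta lists had 1 higher each, of 12, 15, 10 and 15, and ERK feedback and receptors opposing vasopressin 1 lower each, of 21 and 10. Markers of intercalated cells had Car2 lower (-0.27 ± 0.06, adjusted p = 0.14 in edgeR, called by DESeq2) and Atp6v1b1 higher of 5, markers of other nephron segments 0 of 3, and those of fibroblasts, endothelium and immune cells 2 lower of 8 (Pdgfrb and Acta2, both at means below 1 CPM).

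**Figure D5:**
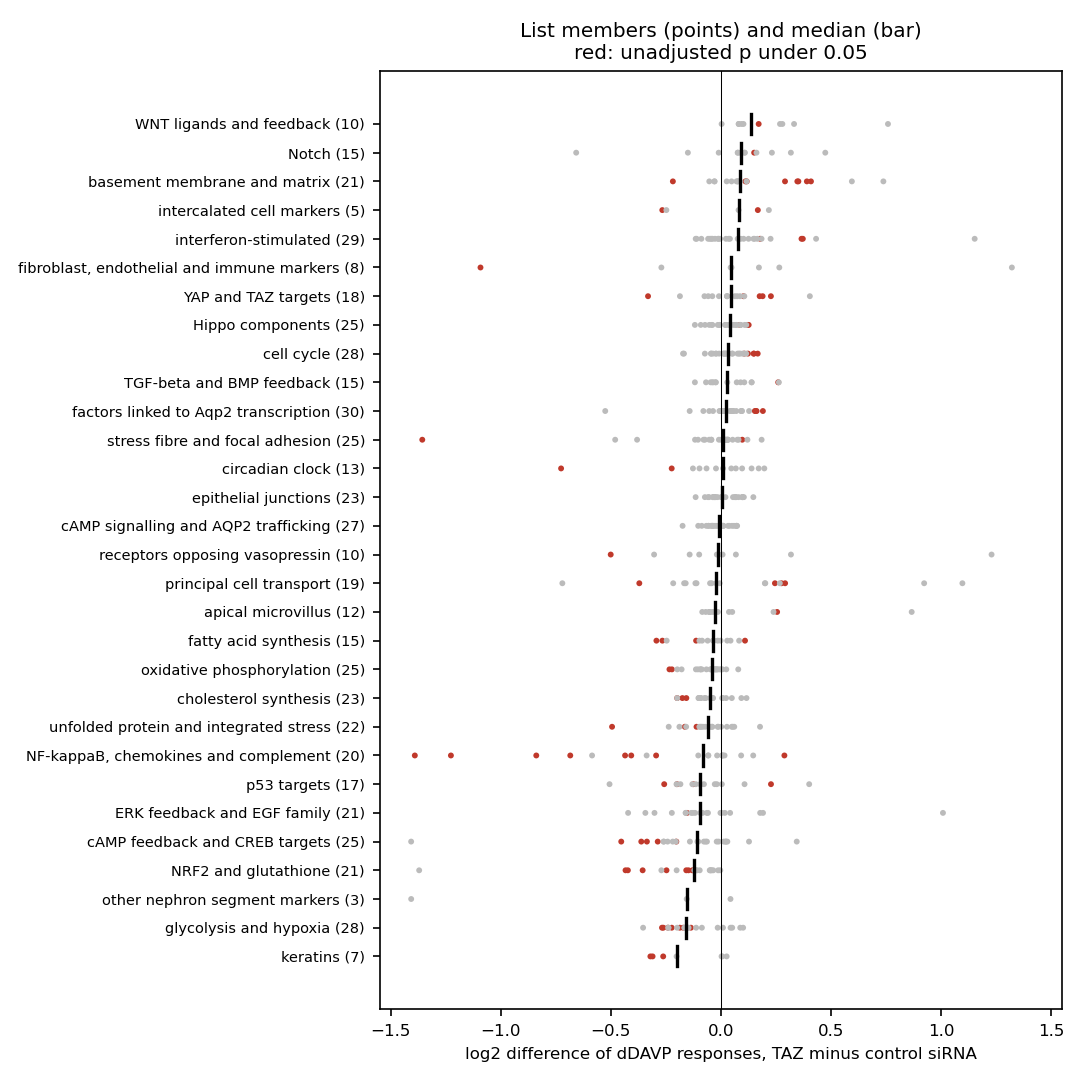
Log2 difference of dDAVP responses (x axis, TAZ siRNA minus control siRNA) for each tested member of 30 gene lists, with the number tested in brackets and a bar at the median. Red points have an unadjusted p under 0.05, and 2 members lie outside the axes. Medians run from -0.20 for keratins to 0.14 for WNT genes, and the red points of the NRF2 and glycolysis lists all lie below 0.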

How the data were processed

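RNA-seq of 12 libraries was analysed. Per the file headers, the deposited values are counts of genes and of transcripts, and they are whole numbers without normalisation. The deposited values were treated as estimated counts. The deposited TPM of genes was not used, and the deposited FPKM and transcript lengths served to check the counts: 85.6% of 157342 transcript counts of 2 to 20 were not whole before rounding (by over 0.05) and 100% were the estimate rounded up. They are thus estimates, not tallies, and those of near-identical gene copies are uncertain. Of the per-sample columns, 36 were left unused. The submitters' processing notes name Bowtie 0.12.2, mm8 and mm10 with no role. The sources used here do not name the counting tool or its strand setting. Both a stranded TruSeq kit and another TruSeq kit appear in the labels' protocols.

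Of 45777 genes, 24656 had a count and 15932 passed filterByExpr (minimum count 10). edgeR 4.0.16 in R 4.3.3 used TMM factors (0.988 to 1.01) and a robust quasi-likelihood fit of 4 group means to all 12 libraries. The fit was run on simulated data, where the pass mark was set at differences larger than any called here. Each SE is the absolute log2 fold change divided by the square root of F. The coefficient of biological variation was 5.11%. Replicate pairs differed beyond counting error (chi-square over its degrees of freedom, 4.20 to 13.2). Genes were named by a rule: a set always named, the largest differences per class and the largest held responses at a mean of at least 1 CPM, and up to 3 members per list with the smallest p. Genes outside that rule (Col4a3, Col4a5, Hspg2, Plod2, Bmp3, Pde4a, Rgs2, Crem, Fos, Gm34865, Gm6787, Trmt61b, Krt7, Krt80, Ccl20, Cxcl1, C3, Nfatc2, Creb1, Nsa2, Lyar, Eif2s2, Runx1, Cav1 and Plau) were named after their values were seen. The contrast, lists and rule were chosen with earlier results of these data known. Alternatives were RLE size factors, DESeq2 1.42.0, limma-voom (limma 3.58.1), no filter, a replicate block, each library left out, responders chosen by either arm, and a bound of 0.25 of the mean response.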

Additional observations from a re-analysis of the deposited data

Results flagged for a closer look

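For 5 genes the dDAVP responses of the 2 siRNA arms differed by the test of the difference itself (edgeR's quasi-likelihood test, called at an adjusted p under 0.05). The log2 differences, TAZ siRNA minus control siRNA, were -0.72 for Abcc3, -0.53 for Slc39a4, -1.23 for Cxcl5, 0.41 for Col4a4 and 0.29 for Col4a1. In each of them the response was smaller with TAZ siRNA.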

How the results depend on the processing

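The count of called differences (5 in edgeR with TMM) was 4 with RLE size factors, 6 with limma-voom, 12 with no filter and 70 with DESeq2, which held all 5. Responses that shrank numbered 10 with no filter and 55 with DESeq2, and those that grew 3 with DESeq2 and 1 with limma-voom. With the stricter bound of 0.25 of the mean response, 15 responses held. The median change of response with TAZ siRNA was -0.094 with responders chosen by the response with control siRNA and -0.00816 with those chosen by the response with TAZ siRNA. Without 1 library, differences called ran from 3 to 16, responses that shrank from 3 to 12, those that grew from 0 to 2 and those that held from 145 to 186. Mean responses called ran from 3434 to 4195, responses with control siRNA from 2103 to 3250 and with TAZ siRNA from 1118 (without TAZ siRNA vehicle replicate 2) to 1752. The median change ran from -0.061 to -0.031 and the share of smaller responses from 61.6% to 72.7%. Called differences numbered 16 without TAZ siRNA vehicle replicate 1 and 10 each without control siRNA vehicle replicate 1, control siRNA dDAVP replicate 1 or TAZ siRNA dDAVP replicate 2. They numbered 3 each without control siRNA vehicle replicate 3, control siRNA dDAVP replicate 3 or TAZ siRNA dDAVP replicate 1, and responses that shrank were 3 also without TAZ siRNA vehicle or dDAVP replicate 3. Those that grew were Cav1 and Plau without TAZ siRNA vehicle replicate 1 and Trmt61b without TAZ siRNA dDAVP replicate 3. Abcc3, Slc39a4 and Col4a4 were called under every alternative run, Cxcl5 in every one but 7 of the 12 that left out a library. With no filter the difference of Elf3 was -0.0075, opposite in sign and not called. Of 110 named genes 8 changed sign without some library, none of them called, with ranges of -0.14 to 0.0084 for Avpr2, -0.25 to 0.039 for Baiap2l2, -0.56 to 0.063 for Cubn, -0.018 to 0.042 for Elf3, -0.55 to 0.25 for Nr4a3, -0.18 to 0.038 for Trabd2b, -0.15 to 0.31 for Ugt1a6a and -0.023 to 0.019 for Yap1. The cause of these changes was not tested.

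Whether replicate numbers pair the samples could not be settled, since all correlations were weak. Deviations of same-numbered libraries correlated at -0.043 to 0.080 over 18 pairs, and those of unlike numbers at -0.058 to 0.065 over 36 pairs. Of 12 libraries, 7 correlated best with one of their own number. With the number as a replicate block 6 differences were called, 4 of them as without it, with Bmp3 and Col4a3 gained and Col4a1 lost (adjusted p = 0.0631), and 190 responses held. The smallest difference edgeR called was 0.29 in size, while DESeq2 called Scnn1a at 0.24, and 3969 of 4162 responders were neither called nor held.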

Other observations

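A few genes that were not responders had opposite estimated changes with the 2 siRNAs. They were chosen after their values were seen. The edgeR fit on filtered genes called none of the 4 named here, DESeq2 called all 4, and edgeR with no filter called Nsa2 and Lyar. Nsa2, a factor of ribosome assembly, went from 70.4, 68.7 and 69.7 to 74.8, 80.5 and 82.2 CPM with control siRNA and from 75, 74.0 and 72.1 to 67.3, 68.7 and 70.0 CPM with TAZ siRNA (difference -0.29 ± 0.05, adjusted p = 0.0594). Lyar, a nucleolar gene, went from 39.4, 36.9 and 34.5 to 39.9, 43.0 and 42.5 CPM and from 41.2, 43.4 and 44.8 to 37.2, 35.1 and 37.7 CPM (-0.41 ± 0.08, adjusted p = 0.0594). Eif2s2, a subunit of translation initiation factor eIF2, had a difference of -0.21 ± 0.05 (adjusted p = 0.09), and the transcription factor gene Runx1 one of -0.34 ± 0.07 (adjusted p = 0.09).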
